A study of Mus musculus with 9 samples.

Results

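Collagen chain genes, every listed gene whose symbol reads Col, a type number, a and a chain number, were described across the 9 hearts of this series. The rule found 44 of 43154 listed genes, and the 25 that reached 1 FPKM in 2 or more hearts were tested. FPKM counts sequenced fragments per length of transcript, scaled to all mapped fragments. The hearts came from C57BL/6 mice and their RNA was sequenced as messenger RNA without strand. The first group, 3 hearts, came from MHC-CnATg mice given vehicle. These mice carry a calcineurin A transgene, a phosphatase that drives heart growth. Its promoter, MHC, is that of a myosin heavy chain and works in cardiomyocytes, not in the fibroblasts that make most cardiac collagen. The second group, 2 hearts, came from the same transgenic line treated with JIB-04, which inhibits histone demethylases of the Jumonji family. Dosing was at 50 mg/kg in 3 doses per week and began when mice were 4 weeks old. The third group, 4 hearts, came from wild type mice given vehicle. Wild type mice given the inhibitor were not analysed here. Vehicle heart 1, JIB-04 heart 1 and wild type hearts 1 and 2 were collected at postnatal day 125 and the others at day 158, although the series text describes dosing until day 158.

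A collagen is a trimer of chains wound into a triple helix. Fibrillar chains (types I, III and V in the heart) form the cable-like fibres of the interstitium, which fibroblasts lay down and which accumulate in fibrosis. Type IV chains form the sheet of the basement membrane around cardiomyocytes and capillaries, with types XV and XVIII attached to it. Type VI makes beaded microfilaments close to cells, and the FACIT chains (fibril-associated collagens with interrupted triple helices, such as types XII, XIV and XVI) sit on the surface of fibrils. Type VIII is a short-chain collagen of vessel walls and remodelling tissue. Of the tested members, 8 of 11 were fibrillar, 7 of 8 of the basement membrane, 4 of 6 of type VI and 4 of 9 FACIT, and 2 of the 10 remaining ones were the type VIII chains.

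Several chains of one trimer are encoded side by side. The type IV genes lie head to head in pairs, with their starts next to each other. Col4a4 (chromosome 1, positions 82448423 to 82586849, minus strand, GRCm38) and Col4a3 (positions 82586921 to 82722059, plus strand) start 71 bases apart. This stretch, intergenic in the annotation, is shown because both genes were higher in transgenic hearts. It is printed on the plus strand, from RefSeq's GRCm38.p6 table, at chr1:82586850-82586920, and holds none of the motifs searched, so no letter is in capitals.

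Col4a4 to Col4a3: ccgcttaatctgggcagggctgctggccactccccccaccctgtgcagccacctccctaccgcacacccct

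Col4a1 (chromosome 8, positions 11198423 to 11312826, minus strand) and Col4a2 (positions 11312805 to 11449287, plus strand) overlap by 22 bases at their starts. Col4a6 and Col4a5 on chromosome X lie 1308 bases apart. Col3a1 and Col5a2 lie tail to tail on chromosome 1, with 24614 bases between them, and Col6a2 and Col6a1 follow each other on chromosome 10. In contrast, the type VIII genes, whose products also assemble with each other, lie on different chromosomes. Their upstream sequences are shown because these chains had the largest fitted differences on the log2(FPKM + 1) scale between transgenic vehicle and wild type hearts. Capitals mark the GC box, GGGCGG or its complement CCGCCC, and the sequences run 5′ to 3′ on the strand of the gene. The window of Col8a1 is chr16:57754738-57754987 on the minus strand and that of Col8a2 is chr4:126286544-126286792 on the plus strand, each ending at the base before the first exon.

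Col8a1: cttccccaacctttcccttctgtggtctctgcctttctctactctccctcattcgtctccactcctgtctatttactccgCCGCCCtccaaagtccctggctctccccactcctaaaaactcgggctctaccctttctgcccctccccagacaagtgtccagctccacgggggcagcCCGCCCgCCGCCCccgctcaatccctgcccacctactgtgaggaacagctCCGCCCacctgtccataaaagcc

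Col8a2: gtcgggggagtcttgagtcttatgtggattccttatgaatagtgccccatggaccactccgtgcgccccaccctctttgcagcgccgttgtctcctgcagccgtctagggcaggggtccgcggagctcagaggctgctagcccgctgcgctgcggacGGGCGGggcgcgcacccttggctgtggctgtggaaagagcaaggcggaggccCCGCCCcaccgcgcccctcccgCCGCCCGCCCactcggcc

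Each window holds 4 matches to the GC box, of which 2 overlap in Col8a2, a number reached in 4.09% of 32817 RefSeq windows of 250 bases. The motif was searched on both strands. So were the CCAAT box, the TATA box as TATAAA, and, as GGAAAA, the core bound by NFAT, the transcription factor that calcineurin activates. RefSeq's table held 38 windows for 35 of the 44 members. The GC box was in 57.9% of the member windows against 32.7% of all windows, the CCAAT box in 34.2% against 33.8%, the TATA box in 13.2% against 12.4% and the NFAT core in 18.4% against 20.4%. Neither type VIII window holds any of the last 3 motifs. These matches describe letters in a window and show no binding.

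One heart stood apart for these genes. In transgenic vehicle heart 3, 9 of the 25 tested chains were lower by at least 1 on the log2 scale than the mean of vehicle hearts 1 and 2, against 1.61% of all tested genes. It was the lowest of the 5 transgenic hearts for 21 chains (84.0%, against 31.4% of all tested genes) and lay below every wild type heart for 8 of 25, a share near the 33.5% of all tested genes. Col15a1 was lower there by 3.06, Col3a1 by 2.95, Col6a3 by 2.27 and Col1a1 by 2.04 on the log2 scale, while Col4a2 was lower by 0.13 and Col14a1 by 0.39. Across the 25 chains its log2 levels correlated at 0.864 to 0.904 with the other hearts, while the other transgenic hearts correlated with each other at 0.984 to 0.996, values that rest on the shared ranking of the chains. Ppp3ca, which encodes the calcineurin A α subunit, was at 199 FPKM in this heart, at 1434 to 1762 in the other transgenic hearts and at 22.9 to 24.8 in wild type hearts. The mitochondrial chromosome held 29.8% of the summed FPKM in this heart and 10.004% to 30.9% in the others. Collagen results are therefore given with and without it. The heart was picked out by these same chain levels. Leaving it out thus favours higher vehicle levels and a smaller spread for the chains that were low there. Results without it are not separate support.

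Summed over the 44 genes, the chains reached 515, 600 and 245 FPKM in transgenic vehicle hearts 1 to 3, 501 and 593 FPKM in the JIB-04 hearts and 258 to 311 FPKM in the wild type hearts. In summed FPKM vehicle heart 3 thus lay below the wild type range, and the other 4 transgenic hearts above it. As a share of all FPKM the chains held 0.0359% in vehicle heart 3, within the wild type range of 0.0355% to 0.0429%, and 0.0807% to 0.0996% in the other transgenic hearts. Of the FPKM outside the mitochondrial chromosome they held 0.0511% in vehicle heart 3 and 0.0432% to 0.05695% in wild type hearts. The makeup of the sum differed as well. Fibrillar chains held 43.99%, 40.4% and 24.2% of it in vehicle hearts 1 to 3, 40.1% and 39.3% with JIB-04 and 29.3% to 33.1% in wild type hearts. Basement membrane chains held 33.0%, 35.1% and 50.8% in the vehicle hearts, 35.01% and 36.1% with JIB-04 and 44.96% to 49.3% in wild type hearts. Type VI chains held 12.1% to 14.4% in transgenic and 15.9% to 17.3% in wild type hearts. FACIT chains held 4.84% to 7.46% in transgenic and 2.89% to 3.81% in wild type hearts. The class of type VIII and others, with 10 genes, held 4.01% to 6.53% against 2.11% to 2.47%. For these 3 classes the shares of all 5 transgenic hearts lay outside the wild type range. In whole-heart RNA, fewer cells of a type and less RNA per cell cannot be told apart.

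**Figure D1:**
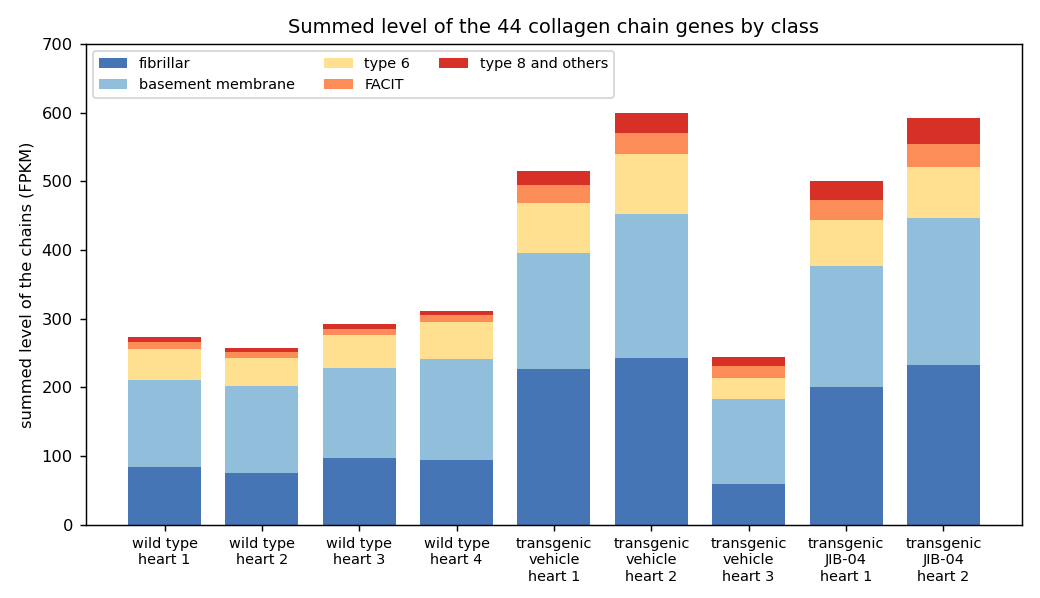
Bars show the summed level in FPKM of the 44 collagen chain genes in each heart, divided by class. Vehicle heart 3, at 245 FPKM, is the lowest transgenic heart, and the other 4 transgenic hearts lie between 501 and 600 FPKM against 258 to 311 FPKM in wild type hearts.

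In wild type hearts the most abundant chains per length were Col4a1 at 50.5 ± 3.58 FPKM (SD, n = 4), Col4a2 at 44.04 ± 5.46 and Col3a1 at 39.2 ± 5.51, followed by Col15a1 at 26.0 ± 2.76 and Col6a1 at 20.5 ± 2.92. The ranges of neighbours in this order overlapped over the hearts, except that all values of Col3a1 lay above all those of Col15a1. Col4a1 lay above Col4a2 within each wild type heart. In vehicle hearts 1 and 2 and both JIB-04 hearts Col3a1 was the highest chain, at 90.1 to 120 FPKM. In vehicle heart 3 it was at 14.1 FPKM, below Col4a2 at 56.9 and Col4a1 at 45.5 FPKM.

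**Figure D2:**
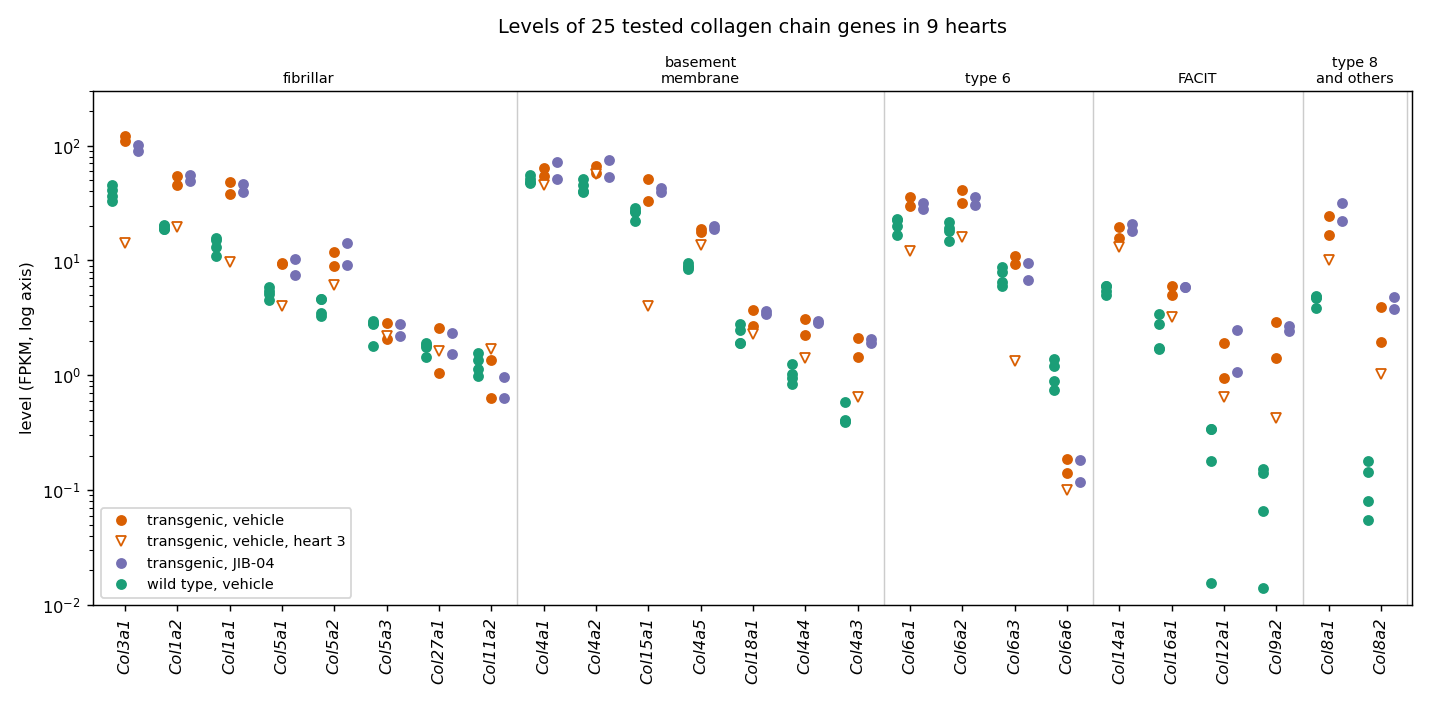
Points show the level of each tested chain gene in each heart (FPKM, log axis), by class and by falling wild type mean, with vehicle heart 3 as an open triangle. Col8a2, Col9a2 and Col12a1 lie under 0.4 FPKM in every wild type heart, and Col6a6 lies under 0.2 FPKM in every transgenic heart.

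The first comparison asked which chains the transgene changed under vehicle. Chains of every class were called, most of them higher, but not those of types I and III. In limma, on log2(FPKM + 1) with a term for day and adjustment by Benjamini-Hochberg over all 13487 genes, 11 of 25 tested chains passed an adjusted p of 0.05 as higher and 1 as lower. Over all tested genes 20.3% were higher and 15.7% lower. The median log2 fold change was 0.61 over the chains and 0.05 over all tested genes. Of the called chains, Col4a3, Col8a2, Col9a2 and Col12a1 reached the filter through transgenic hearts only, JIB-04 hearts included. Col6a6 reached it through wild type hearts only. The filter thus favoured the calls of these chains. The counts depended on single hearts. Without vehicle heart 3, 18 chains were higher and 1 lower, against 21.0% and 16.4% of all tested genes, with a median of 0.94. All 12 calls were kept, and Col1a1, Col1a2, Col3a1, Col5a1, Col6a1, Col6a2 and Col15a1 were added. The added calls were favoured by leaving out a heart that was picked for its low chain levels. Without vehicle heart 1 the calls fell to 6 and without wild type heart 3 to 7. These counts are of chains alone, and do not show whether the fall was particular to the chains. Without regard to the fit, 10 chains were higher in all vehicle transgenic than in all wild type hearts (23.4% of all tested genes) and Col6a6 lower (17.7%). With that heart left out these were 19 chains (29.9%) and again Col6a6 (22.2%). Within day 125, vehicle heart 1 was above both wild type hearts for 21 chains (43.4% of all tested genes) and below both for 3 (40.2%). Within day 158, both vehicle hearts were above both wild type hearts for 11 chains (36.3%) and below both for Col5a3 and Col6a6 (25.0%). A fit of the day 158 hearts alone called Col14a1 as higher and Col6a6 as lower, against 5.31% and 4.02% of all tested genes.

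**Figure D3:**
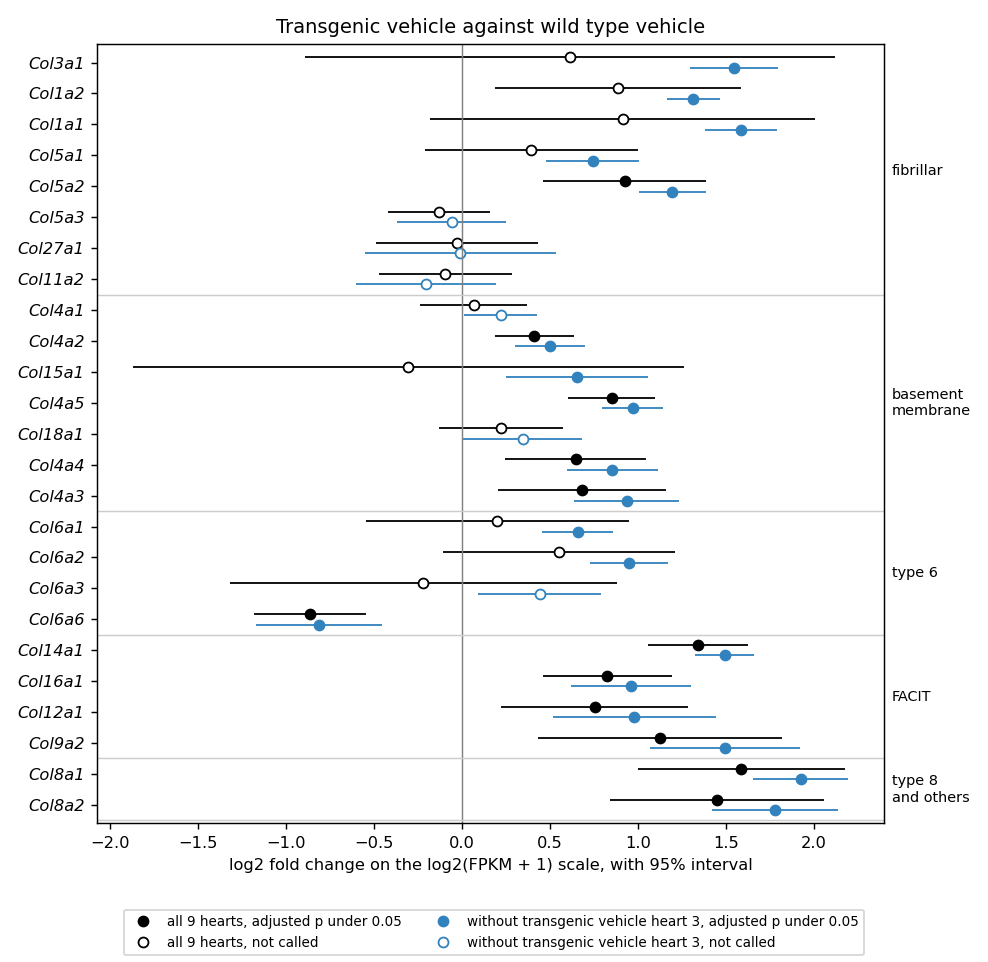
Points show the log2 fold change of each tested chain, transgenic vehicle against wild type vehicle, with its 95% interval, from all 9 hearts (black) and without vehicle heart 3 (blue); filled points passed an adjusted p of 0.05. The interval of Col3a1 runs from -0.89 to 2.12 with heart 3 and from 1.30 to 1.80 without it, while that of Col14a1 moves little.

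Col1a1 and Col1a2 encode the chains of type I collagen, the main fibre of scar. Col1a1 (chromosome 11, positions 94936224 to 94953042) was at 38.0, 48.4 and 9.67 FPKM in vehicle hearts 1 to 3, at 39.8 and 46.6 with JIB-04 and at 13.2, 10.9, 14.99 and 15.8 in wild type hearts 1 to 4. Vehicle heart 3 lay below all wild type hearts and the other transgenic hearts lay above them all. Col1a2 (chromosome 6, positions 4504814 to 4541543) was at 45.9, 54.5 and 19.5 FPKM in the vehicle hearts, at 48.9 and 55.1 with JIB-04 and at 18.8, 18.7, 20.2 and 20.5 in wild type hearts. Here vehicle heart 3 lay within the wild type range. The log2 fold change was 0.91 ± 0.47 (SE) for Col1a1 (limma adjusted p = 0.17) and 0.89 ± 0.30 (SE) for Col1a2 (adjusted p = 0.052), so neither passed. When heart 3 was left out the values were 1.59 ± 0.09 for Col1a1 (adjusted p = 2.3e-05) and 1.31 ± 0.06 for Col1a2 (1.4e-05). Col1a2 also passed with a filter of 5 FPKM, with equal totals and with no term for day.

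Col3a1 encodes the chain of type III collagen, which is laid down with type I and is abundant in compliant tissue. Col3a1 (chromosome 1, positions 45311538 to 45349706) was at 120, 111 and 14.1 FPKM in vehicle hearts 1 to 3, at 90.1 and 101 with JIB-04 and at 36.7, 33.0, 45.7 and 41.2 in wild type hearts. The groups were thus separated except for vehicle heart 3, which was the lowest of all 9 hearts. The log2 fold change was 0.61 ± 0.65 (SE, adjusted p = 0.50) and without that heart 1.55 ± 0.11 (adjusted p = 6.7e-05). Col3a1 shares 1.44% of its exonic bases with the microRNA gene model Gm47302.

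Type V chains are minor components that start fibrils and limit their width. Col5a2 (chromosome 1, positions 45374321 to 45503282) was the only fibrillar chain that passed with all hearts. It was at 8.91, 11.96 and 6.15 FPKM in the vehicle hearts, at 9.18 and 14.3 with JIB-04 and at 3.46, 3.26, 4.61 and 4.63 in wild type hearts. Each transgenic heart lay above each wild type heart, vehicle heart 3 included. The log2 fold change was 0.93 ± 0.20 (SE, adjusted p = 0.0088), and it missed the threshold without vehicle heart 1 (0.74). Its partner Col5a1 had a log2 fold change of 0.39 ± 0.26 (adjusted p = 0.28), and 0.74 without vehicle heart 3. Col5a3, Col11a2 and Col27a1, at 0.629 to 2.95 FPKM in all hearts, had log2 fold changes of -0.13, -0.09 and -0.03 and did not pass with or without vehicle heart 3.

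Of the type IV chains of the basement membrane, Col4a1 and Col4a2 form the trimer found in nearly all basement membranes. Col4a1 was at 54.6, 63.6 and 45.5 FPKM in the vehicle hearts, at 50.8 and 71.8 with JIB-04 and at 48.1, 47.3, 51.5 and 55.2 in wild type hearts, and the groups overlapped. Col4a2 was at 57.9, 67.1 and 56.9 FPKM in the vehicle hearts, at 53.3 and 74.9 with JIB-04 and at 40.5, 39.1, 45.4 and 51.2 in wild type hearts, and each transgenic heart lay above each wild type heart. The log2 fold change was 0.07 ± 0.13 (SE) for Col4a1 (adjusted p = 0.72) and 0.41 ± 0.10 for Col4a2 (adjusted p = 0.013), which missed the threshold without vehicle heart 1. Col4a2 shares 0.982% of its exonic bases with Col4a1 and Gm15419, and values without strand cannot separate such reads.

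The other type IV chains, Col4a3, Col4a4 and Col4a5, assemble with each other in specialised basement membranes, best known from the kidney glomerulus. Col4a5 (chromosome X, positions 141475385 to 141689234) was at 17.8, 18.97 and 13.6 FPKM in the vehicle hearts, at 20.1 and 18.7 with JIB-04 and at 8.91, 9.44, 8.77 and 8.46 in wild type hearts. Col4a4 was at 2.26, 3.06 and 1.43 FPKM in the vehicle hearts, at 2.86 and 2.99 with JIB-04 and at 0.943, 0.840, 1.03 and 1.26 in wild type hearts. Col4a3 was at 1.45, 2.13 and 0.648 FPKM in the vehicle hearts, at 1.89 and 2.06 with JIB-04 and at 0.401, 0.411, 0.395 and 0.588 in wild type hearts. For each of these genes all 5 transgenic hearts lay above all 4 wild type hearts, although vehicle heart 3 was the lowest of the transgenic ones. The log2 fold changes were 0.85 ± 0.11 (SE) for Col4a5 (adjusted p = 0.00075), 0.65 ± 0.17 for Col4a4 (0.021) and 0.68 ± 0.21 for Col4a3 (0.035). Col4a3 lost its call when any one heart other than vehicle heart 3 was left out, and it shares 5.65% of its exonic bases with C430014B12Rik on the other strand. Col4a4 lost it without vehicle heart 1, vehicle heart 2 or wild type heart 3.

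Col15a1 and Col18a1 encode multiplexins, basement membrane collagens that carry heparan or chondroitin sulfate. Col15a1 had the largest gap between vehicle heart 3, at 4.05 FPKM, and hearts 1 and 2, at 32.9 and 51.6 FPKM, with 22.1 to 28.5 FPKM in wild type hearts. Its log2 fold change was -0.30 ± 0.68 (SE, adjusted p = 0.76) and without that heart 0.65 ± 0.17 (adjusted p = 0.021). Col18a1 had 0.22 ± 0.15 (adjusted p = 0.29) and did not pass without it either (0.35, adjusted p = 0.10).

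Type VI collagen is assembled from 1 chain each of Col6a1, Col6a2 and, as the last partner, Col6a3 or one of its relatives. Col6a1 (chromosome 10, positions 76708792 to 76726168) was at 30.0, 35.6 and 12.2 FPKM in the vehicle hearts, at 28.0 and 31.5 with JIB-04 and at 19.9, 16.6, 22.6 and 22.9 in wild type hearts. Its log2 fold change was 0.20 ± 0.33 (SE, adjusted p = 0.66), and 0.66 ± 0.09 without vehicle heart 3 (adjusted p = 0.0010). Col6a2 had 0.55 (adjusted p = 0.17) and 0.95 without that heart (0.00032). Col6a3 had -0.22 (0.75) and 0.44 (0.051), so it missed the threshold both times.

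Col6a6 (chromosome 9, positions 105687809 to 105828160), one of the relatives of Col6a3, was the chain that fell. It was at 0.141, 0.187 and 0.101 FPKM in the vehicle hearts, at 0.183 and 0.118 with JIB-04 and at 0.891, 0.751, 1.202 and 1.39 in wild type hearts. Every transgenic heart lay below every wild type heart, vehicle heart 3 included. The log2 fold change was -0.86 ± 0.14 (SE, adjusted p = 0.0022), on a scale that understates changes of such low genes. Without wild type heart 3 or 4 the gene did not reach the filter. The neighbouring Col6a5 and Col6a4 were at most at 0.0175 and 0.0007 FPKM.

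The 4 tested FACIT chains of 9 were called as higher, of which Col9a2 and Col12a1 passed the filter through transgenic hearts only. Col14a1 (chromosome 15, positions 55307750 to 55520803), which binds type I fibrils, was at 15.7, 19.4 and 13.1 FPKM in the vehicle hearts, at 18.2 and 20.6 with JIB-04 and at 5.37, 4.99, 5.96 and 5.99 in wild type hearts. All transgenic hearts thus lay above all wild type hearts. Its log2 fold change of 1.34 ± 0.12 (SE, adjusted p = 0.00016) kept its call under each alternative tried, the day 158 hearts alone included. Col9a2 (chromosome 4, positions 121039385 to 121055322), a chain of type IX collagen known from cartilage, was at 1.41, 2.92 and 0.425 FPKM in the vehicle hearts, at 2.42 and 2.69 with JIB-04 and at 0.0658, 0.152, 0.0140 and 0.140 in wild type hearts. Its log2 fold change was 1.13 ± 0.30 (adjusted p = 0.021), and its call was lost without vehicle heart 1, wild type heart 3 or wild type heart 4. Its partner chains Col9a1, listed at 0 in all hearts, and Col9a3, at most at 0.529 FPKM, were not tested. Col16a1 (chromosome 4, positions 130047840 to 130099283) was at 6.03, 4.99 and 3.23 FPKM in the vehicle hearts, at 5.88 and 5.93 with JIB-04 and at 3.40, 2.78, 1.69 and 1.75 in wild type hearts, so vehicle heart 3 overlapped with wild type heart 1. Its log2 fold change was 0.83 ± 0.16 (adjusted p = 0.0051). Col12a1, the FACIT of stressed tendon and muscle, rose by 0.75 ± 0.23 on the log2 scale (adjusted p = 0.035) and lost its call under several alternatives, among them leaving out vehicle heart 1 or 2 or wild type heart 2, 3 or 4.

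Both type VIII chains rose. Col8a1 (chromosome 16, positions 57624258 to 57754737) was at 16.8, 24.2 and 10.1 FPKM in the vehicle hearts, at 22.2 and 31.9 with JIB-04 and at 4.74, 3.87, 4.83 and 4.92 in wild type hearts. Col8a2 (chromosome 4, positions 126286793 to 126314330) was at 1.96, 3.92 and 1.03 FPKM in the vehicle hearts, at 3.78 and 4.83 with JIB-04 and at 0.0800, 0.0548, 0.178 and 0.142 in wild type hearts. Each transgenic heart lay above each wild type heart for both genes, and vehicle heart 3 was again the lowest of the transgenic ones. The log2 fold changes of 1.59 ± 0.26 (SE, adjusted p = 0.0023) and 1.45 ± 0.26 (adjusted p = 0.0041) were the largest of the 25 tested chains on the log2(FPKM + 1) scale.

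The remaining 19 members were not tested. They were Col2a1, Col11a1 and Col24a1 of the fibrillar class, Col4a6, Col6a4, Col6a5, the FACIT chains Col9a1, Col9a3, Col19a1, Col20a1 and Col22a1, and Col7a1, Col10a1, Col13a1, Col17a1, Col23a1, Col25a1, Col26a1 and Col28a1 of other types. Col23a1, a transmembrane collagen, reached 1.29 FPKM in vehicle heart 3, and the other 18 stayed under 1 FPKM in each heart. Col9a1 and Col10a1, which are cartilage collagens, were listed at 0 in all hearts, and Col2a1, the main fibrillar chain of cartilage, was at most at 0.124 FPKM.

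Ratios between chains within a heart do not depend on a factor that scales a whole heart. The log2 ratio of FPKM was compared between vehicle transgenic and wild type hearts for 8 pairs by exact two-sided permutation tests (n = 3 and 4), in which 0.0286 is the smallest p that can occur and 0.0571 the adjusted p it gave over the 8 pairs. No pair passed after adjustment, and 4 were at that smallest p with all 3 vehicle hearts below all 4 wild type hearts. Col4a1 to Col4a2 was at -0.09, -0.08 and -0.32 in vehicle hearts 1 to 3 and at 0.25, 0.28, 0.18 and 0.11 in wild type hearts, a difference of means of -0.37. Col6a1 to Col6a2 differed by -0.38, and Col5a1 to Col5a2 by -0.70. In each of these pairs the second chain was thus relatively higher in transgenic hearts, also in both JIB-04 hearts, which lay below all wild type hearts. Col8a1 to Col8a2 differed by -2.47, but with a constant of 1 added to each level the difference was 0.14, since Col8a2 is near 0 in wild type hearts. The ratios of Col1a1 to Col1a2 (difference 0.04, exact permutation p = 0.89), Col1a1 to Col3a1 (0.38, 0.23), Col3a1 to Col5a2 (-0.58, 0.60) and Col6a3 to Col6a1 (-0.69, 0.29) did not separate the groups. Vehicle heart 3 lay outside the range of the other 8 hearts in all 4 of these ratios, for instance at 1.1965 for Col3a1 to Col5a2 against 2.82 to 3.75.

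**Figure D4:**
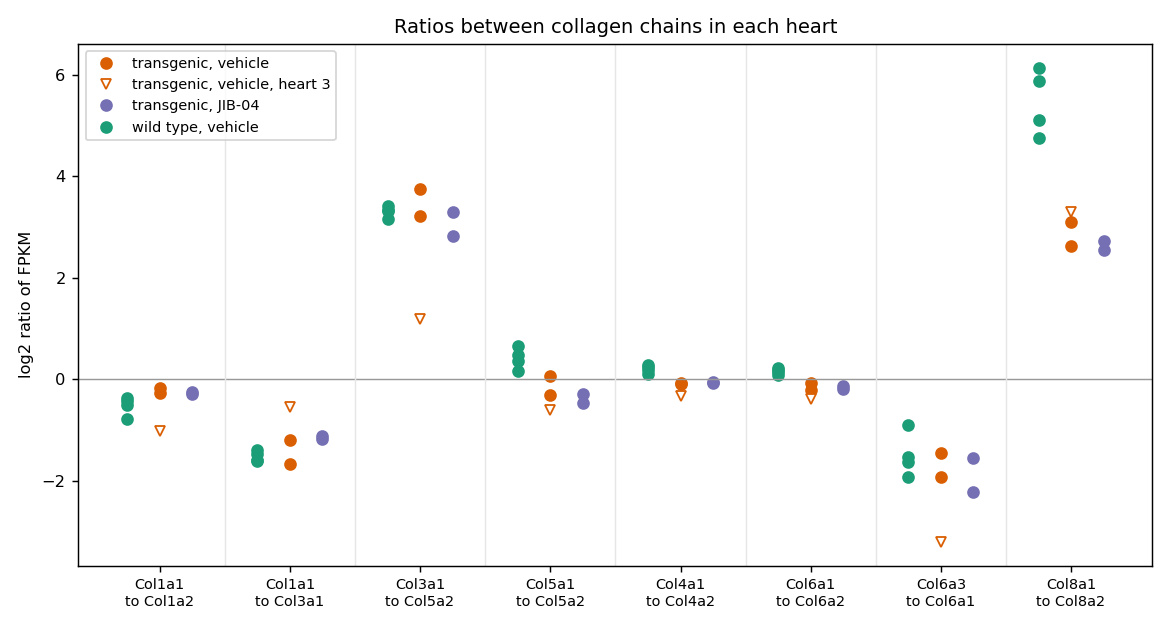
Points show the log2 ratio of FPKM of 8 chain pairs in each heart. For Col5a1 to Col5a2, Col4a1 to Col4a2, Col6a1 to Col6a2 and Col8a1 to Col8a2 all transgenic hearts lie below all wild type hearts, and vehicle heart 3 (open triangle) lies apart in the other 4 pairs.

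Genes that act on collagen chains were taken from a list by step. Their counts stand beside 20.3% higher and 15.7% lower over all tested genes. Of 16 tested genes of procollagen hydroxylation and folding, 3 rose and 1 fell between wild type and transgenic vehicle hearts. With all hearts neither count exceeded the share of all tested genes. Leprel1, which encodes the prolyl 3-hydroxylase P3H2 that acts on type IV collagen, rose by 4.71 on the log2 scale, and Plod2, a lysyl hydroxylase of the telopeptides that sets the kind of cross-link, by 1.70. Colgalt2, a collagen galactosyltransferase, fell by 0.59. Of 8 genes of secretion and propeptide cleavage 3 rose and 0 fell, namely Adamts2, the N-proteinase of procollagens (1.10), Pcolce2, an enhancer of C-propeptide cleavage (0.68), and Sec23a of the export coat (0.46). Of 12 genes of cross-linking and fibril assembly 9 rose and 0 fell, with the largest rises in Bgn, the proteoglycan biglycan (1.71), Lox, lysyl oxidase (1.66), and Fmod, fibromodulin (1.47). Of 7 receptors 2 rose and 1 fell, namely Ddr1, a collagen-binding kinase (0.66), the integrin subunit Itgb1 (0.64) and its partner Itga1 (-0.71). In the fit without vehicle heart 3 the counts higher and lower were 8 and 1, 4 and 1, 11 and 0 and 4 and 1 for these steps. Over all tested genes 21.0% were then higher and 16.4% lower. With all hearts the median log2 fold changes of the steps were 0.10, 0.27, 0.74 and 0.31, against 0.05 over all tested genes.

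Markers of cell types also differed between the groups, and their counts stand beside 20.3% higher and 15.7% lower over all tested genes. Of 10 fibroblast markers other than collagens, 7 were higher and 0 lower in transgenic vehicle than in wild type hearts, and their summed level was 1212 to 1623 FPKM against 793 to 948 FPKM. Of 7 markers of activated fibroblasts 6 were higher and 1 lower. Their sum was 645, 638 and 214 FPKM in vehicle hearts, 607 to 615 FPKM with JIB-04 and 40.3 to 71.5 FPKM in wild type hearts, and Acta2, which smooth muscle also expresses, held most of it. In vehicle heart 3 the fibroblast sum was the highest of all hearts (1623 FPKM) while the collagen sum, in FPKM, was the lowest. As a share of all FPKM, wild type heart 1 had a lower collagen sum. Of the fibroblast sum in vehicle heart 3, Dcn and Gsn held most, at 567 and 757 FPKM. These 2 genes, Pdgfra and Ly6a were higher there than in vehicle hearts 1 and 2. Lum, Dpt, Mfap5 and Pi16 were lower there, and Tcf21 and Medag lay between those hearts. Endothelial markers (5 of 7) and smooth muscle and pericyte markers (5 of 8, with 1 higher) were lower, with sums of 121 to 176 against 203 to 220 FPKM and 156 to 195 against 255 to 299 FPKM. Cardiomyocyte markers were lower in 4 and higher in 1 of 7, with sums of 11880 to 13266 against 15402 to 18010 FPKM, so the labelled tissue was met in each heart. Of cartilage and valve markers Sox9 was higher and Prg4 was at 35.5 FPKM in vehicle heart 3 and 2.53 to 8.83 FPKM in the others. The other 6 genes of that list were not tested. Acan, Hapln1 and Matn3, of cartilage matrix, were at most at 0.0374 FPKM. Matn1, a cartilage matrilin, was at 0.2995, 0.465 and 0.269 FPKM in the vehicle hearts, at 0.152 and 0.5845 with JIB-04 and at most at 0.0049 in wild type hearts, and Chad and Lect1 were at most at 0.397 FPKM. With all hearts no macrophage (6), epicardial (1) or erythroid (2) marker passed, and 1 of 3 Schwann cell markers was lower. Without vehicle heart 3, 1 macrophage marker, the 1 epicardial marker and 6 endothelial markers were lower. Of the fibroblast markers other than collagens, 7 were then higher and 1 lower. The counts of the other cell types were unchanged, against 21.0% higher and 16.4% lower over all tested genes. The part of these cells in the collagen results was not tested.

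The second comparison asked what JIB-04 changed in transgenic hearts, and no collagen chain passed. Over all tested genes 0.00741% passed in either direction, a single gene, and at an unadjusted p under 0.05 there were 2 of 25 chains against 3.29% of all tested genes. With all hearts, 24 of 25 chains lay above 0, with a median log2 difference of 0.32 against -0.01 for all tested genes. Without vehicle heart 3 the median was 0.05, 17 of 25 lay above 0 and again no chain passed (0.0149% of all tested genes). No chain was separated between JIB-04 and vehicle hearts in either direction (5.55% of all tested genes higher and 6.88% lower). When vehicle heart 3 was left out, Col3a1 alone was separated, as lower (10.7% higher and 13.7% lower over all tested genes). JIB-04 heart 1 was above vehicle heart 1 of the same day for 17 chains, with a median log2 difference of 0.06, against 59.7% and a median of 0.04 over all tested genes. JIB-04 heart 2 was above vehicle heart 2 for 10 chains, with a median of -0.02, against 34.8% and -0.07. It was above vehicle heart 3, also of day 158, for 23 chains, with a median of 1.07, against 46.9% and -0.02. For the chains JIB-04 heart 2 thus lay further from vehicle heart 3 than from vehicle heart 2.

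The chains with the smallest p were Col8a2, with a log2 difference of 0.80 ± 0.31 (SE, 95% interval 0.07 to 1.52), Col8a1 with 0.73 ± 0.30 (0.02 to 1.43) and Col14a1 with 0.29 ± 0.15 (-0.05 to 0.63), each with a limma adjusted p of 0.987. Without vehicle heart 3 these were 0.47, 0.39 and 0.14 (adjusted p = 0.999 each). The JIB-04 hearts, at 22.2 and 31.9 FPKM for Col8a1, overlapped with the vehicle hearts, at 10.1 to 24.2 FPKM. For Col1a1 the difference was 0.68 with an interval of -0.62 to 1.98, and 0.01 with an interval of -0.23 to 0.24 without vehicle heart 3. For Col3a1 it was 0.66 (-1.13 to 2.45) and -0.27 (-0.56 to 0.02), and for Col4a1 0.19 (-0.18 to 0.55) and 0.03 (-0.20 to 0.27). For Col6a1 it was 0.32 (-0.57 to 1.21) and -0.14 (-0.37 to 0.10). Intervals of this width do not show that the chains were alike. In the 8 chain ratios, the exact two-sided permutation p was 0.30 or above for JIB-04 against vehicle (n = 2 and 3), where 0.10 is the smallest that can occur.

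**Figure D5:**
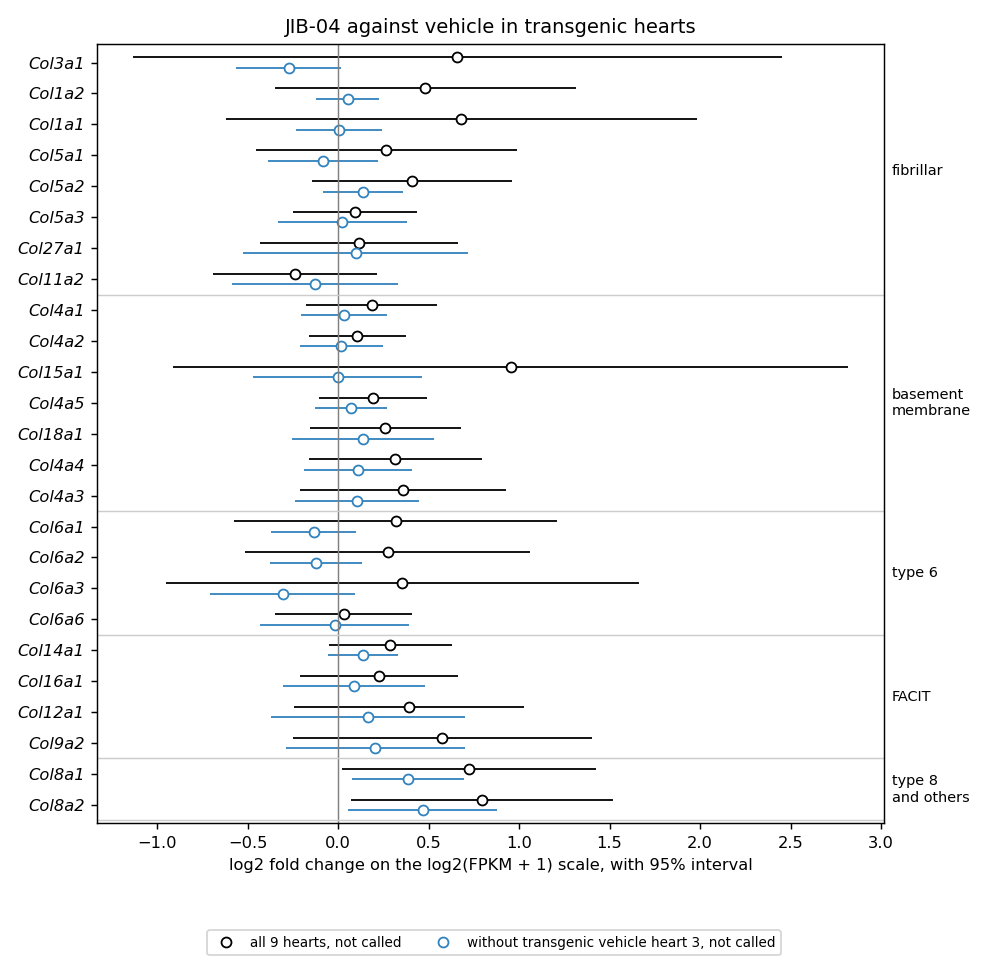
Points show the log2 difference of each tested chain, JIB-04 against vehicle in transgenic hearts, with its 95% interval, from all 9 hearts (black) and without vehicle heart 3 (blue). No point passed; with heart 3 the estimates run from -0.24 to 0.95, and without it from -0.31 to 0.47.

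The third comparison set the JIB-04 hearts against wild type hearts, which it shares with the first one. With all hearts in the fit 12 chains were higher and 1 lower, against 17.4% and 14.8% of all tested genes. Without vehicle heart 3, which enters through the shared spread, 19 were higher and 1 lower (21.4% and 18.3%), and without JIB-04 heart 2 the calls fell to 4. The fit without JIB-04 heart 2 leaves 1 JIB-04 heart, and its count is of chains alone. Among the calls with all hearts, Col4a3, Col8a2, Col9a2 and Col12a1 reached the filter through transgenic hearts only and Col6a6 through wild type hearts only. This favoured their calls. The called chains included Col8a1 (2.31), Col8a2 (2.25), Col9a2 (1.70), Col14a1 (1.63), Col1a2 (1.37) and Col5a2 (1.33) as higher and Col6a6 (-0.83) as lower. Side by side, the same chains had 1.59, 1.45, 1.13, 1.34, 0.89, 0.93 and -0.86 in transgenic vehicle hearts. These vehicle values include vehicle heart 3. Without that heart the type VIII chains ran from 1.78 to 1.92 in vehicle hearts. The median over the 25 tested chains was then 0.94 for vehicle and 0.96 for JIB-04 hearts, both against wild type. With vehicle heart 3 the medians were 0.61 and 0.96. Both JIB-04 hearts lay above all wild type hearts for 19 chains (28.4% of all tested genes) and below for Col11a2 and Col6a6 (21.7%).

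No chain passed for a difference between day 158 and day 125 in the fit over all groups (0.156% of all tested genes higher and 0.222% lower), and 2 of 25 were at an unadjusted p under 0.05 against 18.8% of all tested genes. In the fit without vehicle heart 3 Col5a2 passed as higher at day 158, by 0.43 ± 0.07 (SE, adjusted p = 0.043), against 0.425% of all tested genes higher and 0.552% lower. In that fit 13 of 25 chains were at an unadjusted p under 0.05 against 22.6% of all tested genes, so that leaving out this heart moved the count from below the share of all genes to above it. No chain passed for a difference of the transgene effect between the days (0.00741% of all tested genes) or of the JIB-04 effect (0.00%), with 0 and 1 chains at an unadjusted p under 0.05 against 2.97% and 3.00% of all tested genes. When vehicle heart 3 was left out, no chain passed either, and 5 and 2 chains were at an unadjusted p under 0.05 against 4.43% and 5.64%. Day 125 has 1 vehicle and 1 JIB-04 heart, so these fits take their spread from the pairs of hearts that share group and day. The result for the transgene effect depended on the heart left out. Without vehicle heart 2, heart 3 is the only vehicle heart of day 158, so calls of that fit are not given.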

How the data were processed

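Messenger RNA of 9 hearts was measured by sequencing. Each heart has 1 deposited file, whose values are on a log2 scale of FPKM per the file headers. The constant inside the logarithm is not stated, and 1 was used, since the lowest value was exactly 0. Trizol served for extraction and the library kit was non-directional, per the labels' protocols. Cufflinks 2.2.1, GATK 4.1.2, Picard and STAR 2.7.1a are named with GRCm38, with no role stated, per the submitters' processing notes. The sources used here give no read depth, so the precision of low values is unknown, and no scaling between hearts is recorded.

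The 13487 genes that reached 1 FPKM in 2 or more hearts entered limma 3.58.1 (R 4.3.3) as log2(FPKM + 1), with a mean per group, a term for day and an intensity trend, over all hearts (5 residual degrees of freedom, with 3.07 from the prior). Differences between days came from the 6 combinations of group and day. P-values are two-sided and adjusted by Benjamini-Hochberg over all genes, with a threshold of 0.05. The fit was tested on simulated data. Chain ratios were compared by exact permutation tests in Python 3.11.15.

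The members and lists were chosen with earlier results of these data known. Values per heart are given for Col1a1, Col1a2, Col3a1, Col4a1, Col4a2 and Col6a1, for up to 3 called chains per class with the largest change, and for the 3 chains with the smallest p for JIB-04, and of the pathway steps the called genes among the 3 largest changes are named. Leprel1, Lect1 and Emr1 are older symbols used by the files. Positions count from 1, and exon overlaps are from GENCODE M21 (44 of 44 members matched). Alternatives were another pseudocount, 2 other filters, 3 scalings, a fit that omits day, a block for the replicate number, day 158 alone and leaving out each heart. Leaving out each heart was added for the differences between days, and results without vehicle heart 3 are stressed, after the data were seen. Protein sequences were not used here.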

Additional observations from a re-analysis of the deposited data

Results flagged for a closer look

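In the groups of 4, the wild type hearts, 1 heart stood far from the others for 3 of the 33 values examined, by the share of the group's range that separates it from its nearest neighbour (Dixon's 95% critical value). Chance alone marks about 1 in 20 such groups. Wild type heart 4 was high for Col4a3, with a share of 0.909 (log2 level 0.67 against 0.48 to 0.50 in the others). Wild type heart 2 was low for Col5a3, with a share of 0.896 (1.48 against 1.93 to 1.98). The same heart was low for Col8a1, with a share of 0.843 (2.29 against 2.52 to 2.57).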

How the results depend on the processing

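Of 25 chains 12 were called between transgenic vehicle and wild type hearts and 13 between JIB-04 and wild type hearts. The counts for the filter, the block, the day 158 hearts and single hearts left out are of chains alone. They do not show whether a change was particular to the chains. A filter of 5 FPKM also leaves fewer chains that can be called. With a filter of 5 FPKM the counts were 7 and 8, and with the replicate number as a block 6 and 5. In the day 158 hearts alone they were 2 and 1. The 2 stand beside 5.31% higher and 4.02% lower over all genes tested there, and the 1 is of chains alone. The cause was not tested beyond the smaller number of genes or hearts. Leaving out each heart in turn gave 6 to 19 and 4 to 20 calls. For day the range was 0 to 1. The difference of the transgene effect between days also depended on the heart left out. JIB-04 against vehicle gave 0 calls under every alternative, as did the difference of the JIB-04 effect between days. With every heart scaled to equal totals the median of all genes moved from 0.05 to 0.23, with 4504 higher and 1006 lower against 2739 and 2123, and the chains had 12 higher and 1 lower. Median of ratios gave 2329 and 2540, quantile normalization 2233 and 2540, and no called chain changed direction. Some chains without a call reversed. Col3a1 was at -0.11 in the day 158 hearts alone. Col4a1 was at -0.024 and Col6a1 at -0.079 with the replicate block, and Col6a1 at -0.11 in the day 158 hearts. The ratio of Col8a1 to Col8a2 was 0.14 with a constant of 1. Over hearts left out, Col3a1 ranged from -0.087 to 1.55, Col4a1 from -0.043 to 0.22, Col6a1 from -0.090 to 0.66, the ratio of Col1a1 to Col1a2 from -0.12 to 0.30 and that of Col3a1 to Col5a2 from -1.10 to 0.18. With 1 heart fewer the ratio tests cannot reach 0.05. Same-numbered vehicle and wild type hearts deviated from their group means with correlations of 0.08, 0.02 and 0.18. For vehicle and JIB-04 hearts these were 0.43 and -0.07, and for JIB-04 and wild type hearts 0.18 and -0.19. The 2 JIB-04 hearts deviate from their mean by mirrored amounts, so the values with them are not separate. These correlations therefore cannot decide on pairing, and the numbers were not taken as pairs. Hearts with the number 1 also share their day, while wild type heart 2 differs in day from vehicle heart 2 and JIB-04 heart 2.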
